A study of Mus musculus with 2 samples.

Results

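Eef1a1 and Eef2 encode the translation elongation factors eEF1A1 and eEF2, and 3 of the 2888 listed HA-Dido3 peaks lay in the windows set around them, 1 at Eef1a1 and 2 at Eef2. The windows covered chromosome 9 from 78316000 to 78340000 for Eef1a1 (24 kb) and chromosome 10 from 80629000 to 80656000 for Eef2 (27 kb), in mm9. A peak was a member if at least 1 base of it overlapped a window. The genes had been chosen by the high values of their peaks in this same list, so the scores, folds, tags and ranks below are a description with no test. The data were from 1 chromatin immunoprecipitation (ChIP) library and 1 input library of C57BL/6 mouse embryonic stem cells. Both libraries were from cells of the genotype Dido3deltaCT+HADido3, that is, cells with the allele labelled Dido3deltaCT to which HA-tagged Dido3 had been returned. They were grown in self-renewal conditions with leukemia inhibitory factor, the cytokine LIF. The ChIP used a polyclonal anti-HA antibody and the input used none. No anti-HA precipitation from untagged cells was part of the design, so tagged protein and non-specific precipitation cannot be told apart, and whether the cells were 1 clone is not given in the sources used here.

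During translation elongation, eEF1A1 in its GTP-bound form brings each aminoacyl-tRNA to the ribosome, and eEF2 uses GTP to move the ribosome along the mRNA after each peptide bond. Both are abundant in dividing cells, and mRNAs for translation factors such as these begin with a pyrimidine-rich tract through which growth signals adjust their translation. Dido3 is the largest protein made from the Dido1 gene and carries a PHD finger, a domain that binds methylated histone H3. The question put to the peak list was where peaks of the anti-HA ChIP were listed around these 2 genes and how those peaks compared with the rest of the list.

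The Eef1a1 window held a single long peak of high fold. It ran from 78323543 to 78326035 on chromosome 9, a length of 2493 bp, with its summit at 78325022. It contained 277 ChIP tags (exact Poisson 95% interval 245 to 312), at a fold enrichment of 74.36 and a score of 2415.4. The score was read as -10 times the log10 of the p-value from peak calling, since the header names the log10 without the sign and all values are positive, and the fold was read as the ChIP signal at the summit over the background that the caller expected there. Scores, folds and false discovery rates are printed as the authors deposited them. In the whole list this peak ranked 8 by score, 5 by fold, 17 by tags and 35 by length, and it had the highest fold of the 134 peaks on chromosome 9. Intervals of tags cover counting error only, and with 1 ChIP library there was no replicate error to set beside any value.

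The strong Eef2 peak was shorter and held fewer tags, but had the highest fold of all 2888 peaks. It ran from 80644860 to 80645826 on chromosome 10, a length of 967 bp, with its summit at 80645447. It contained 121 tags (interval 100 to 145) at a fold of 88.06 and a score of 1130.54. Its ranks were 1 by fold, 56 by score, 101 by tags and 346 by length. The peak thus led the list by fold and stood well below the top by length and by tags.

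The weak Eef2 peak was among the shortest of the list. It ran from 80640801 to 80641006, a length of 206 bp, with its summit at 80640891. It contained 11 tags (interval 5.49 to 19.7) at a fold of 19.57 and a score of 77.3, which placed it 1389 by score, 423 by fold and 2865 by length. Its listed fold was high among peaks with as few tags, a comparison chosen after the values were seen. Of the 334 listed peaks with 11 tags, none had a higher fold and 2, this one included, had this fold. Their median fold was 11.78. A fold that rests on so few tags has a wide counting error, and the difference from this median was not tested. Of the 24 peaks no longer than 206 bp, 3, again with this one included, had a fold at least as high. The strong peak held 91.7% of the 132 tags listed in the Eef2 window.

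**Figure D1:**
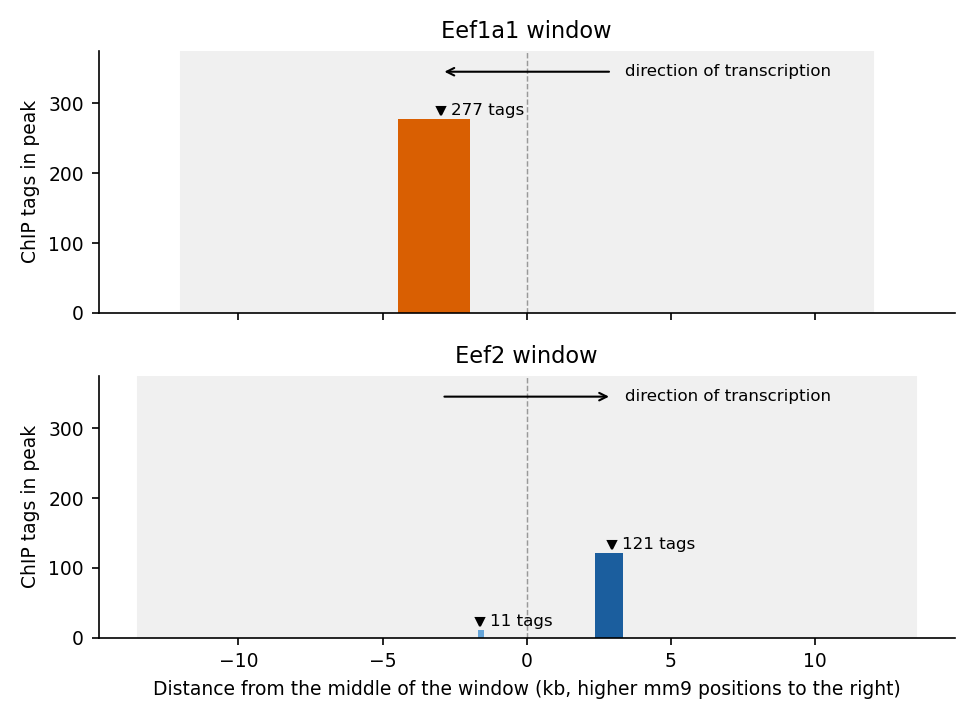
Listed peaks in the Eef1a1 window (upper) and the Eef2 window (lower), both shaded, by distance from the middle of the window in kb (x axis) and ChIP tags per peak (y axis). Bars span each peak, triangles mark summits and arrows give the strand of the gene. The Eef1a1 peak (277 tags) and the strong Eef2 peak (121 tags) lay on opposite genomic sides of the middle, each on the side towards which its gene is transcribed. The middle is set by the choice of window, so these sides give no place within the gene.

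Positions were read against the windows, because the gene models used here are of another build (GRCm38.p6) and coordinates were not converted. Whether a peak covered the start, the body or the region past the 3′ end of its gene was therefore not analysed here. The strand of each gene was taken from RefSeq. Eef1a1 is transcribed from the minus strand, towards lower positions, and Eef2 from the plus strand, towards higher positions. The middle of a window is a mark set by the choice of window, not a position in the gene. Against that mark the Eef1a1 summit lay 2.98 kb in the direction of transcription and the strong Eef2 summit lay 2.95 kb in the direction of transcription. The weak Eef2 summit lay 1.61 kb in the opposite direction. The 2 Eef2 summits were 4.56 kb apart, with 3.85 kb between the peaks. Within the peaks, the summits stood 59.3% (Eef1a1), 60.8% (strong Eef2) and 43.9% (weak Eef2) of the way from the lower to the higher end. All were inside the middle range of the list (quartiles 36.2% and 62.5%). These shares follow genomic positions. As the 2 genes lie on opposite strands, the shares do not compare the summits along the direction of transcription.

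The windows may hold genes other than the elongation factors. In RefSeq's order of genes on GRCm38, Eef1a1 is flanked on the lower side by Mto1, which encodes a mitochondrial tRNA modification enzyme, Cgas, which encodes the cytosolic DNA sensor cGAS, and the pseudogene Gm8093. On the higher side follow the long noncoding RNA gene LOC115487230, Slc17a5, which encodes the lysosomal sialic acid transporter, and Cd109. Eef2 is flanked on the lower side by Pias4, which encodes a SUMO ligase, Zbtb7a, a zinc finger repressor gene, and Map2k2, which encodes the kinase MEK2. The gene of the small nucleolar RNA Snord37 lies within Eef2, and Dapk3, a kinase gene, and the long noncoding RNA gene Atcayos follow. No peak was assigned to any of these. Other genes of translation elongation, such as the eEF1B subunits and the enzymes that make diphthamide on eEF2, were not placed on mm9 and have no value here.

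The start regions of the 2 genes are shown because a peak at a start would cover these bases, although whether any of the 3 peaks did was not tested. Each run holds 120 bases before the RefSeq start and the first 30 bases of the transcript, 5′ to 3′ on the gene's strand, from RefSeq on GRCm38.p6, whose positions cannot be set beside those of the peaks. The Eef1a1 run is chr9:78481695-78481844 on the minus strand and the Eef2 run is chr10:81176511-81176660 on the plus strand. Capitals mark the motifs named next.
Eef1a1: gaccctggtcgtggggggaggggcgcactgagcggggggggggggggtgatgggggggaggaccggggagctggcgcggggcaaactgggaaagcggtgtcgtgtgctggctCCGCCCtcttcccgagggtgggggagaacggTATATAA
Eef2: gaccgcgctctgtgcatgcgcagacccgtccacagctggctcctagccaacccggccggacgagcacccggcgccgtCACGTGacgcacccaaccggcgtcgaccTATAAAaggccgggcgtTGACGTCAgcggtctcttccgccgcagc

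Motif letters were searched on both strands of all 32851 RefSeq start regions of 300 bases, and positions are counted from the annotated start, with no base numbered zero. The Eef1a1 region held TATATAA at 24 to 30, after the annotated start, and GGGCGG on the opposite strand at -8 to -3 and at -191 to -186, the latter outside the printed run. The Eef2 region held TATAAA at -15 to -10, the E-box CACGTG at -43 to -38 and the cAMP response element TGACGTCA at 3 to 10. TATATAA occurred in 3.24% of all regions, TATAAA in 13.6%, CACGTG in 7.15%, TGACGTCA in 1.79% and GGGCGG in 35.7%. The letters TATATAA were searched as the form seen in Eef1a1, so the match there was fixed in advance and its share is no measure of rarity. Neither gene held the other's form of the TATA letters, and the matched motifs did not overlap. These matches describe the letters only.

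Set beside peaks of like score, the strong Eef2 peak was short and of high fold. Its gene was chosen by the high values of its peaks, so this comparison describes the peak and tests nothing. The 5 peaks ranked just above it and the 5 ranked just below it by score were 1581 to 2784 bp long and held 135 to 175 tags at folds of 28.62 to 41.09. At 967 bp, 121 tags and a fold of 88.06 the Eef2 peak was shorter, had fewer tags and had a higher fold than each of them. Of the 55 peaks that scored higher, none was shorter than it, and the shortest measured 1181 bp. Among the 645 peaks of over 500 to 1000 bp it ranked 1 by score and by fold, which follows from the values already given. It also ranked 1 there by tags and by tags per kb. The next fold in that class was 64.58, at a peak of 947 bp with 97 tags, and the class medians were 29 tags and a fold of 15.65.

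The Eef1a1 peak belonged to the long peaks. Among the 325 peaks longer than 1000 bp it ranked 8 by score, 4 by fold, 17 by tags and 35 by length, where the medians were 1493 bp, 93 tags and a fold of 24.53. It was 2.58 times as long as the strong Eef2 peak and held 2.29 times as many tags, whereas the fold at Eef2 was 1.18 times that at Eef1a1. Tags per kb of peak were 111.1 at Eef1a1 (interval 98.4 to 125) and 125.1 at the strong Eef2 peak (interval 104 to 150), ranks 12 and 5 in the list. These counting intervals overlapped, and the difference was not tested. The weak Eef2 peak had 53.4 tags per kb (interval 26.7 to 95.5), and the median over the list was 38.8.

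**Figure D2:**
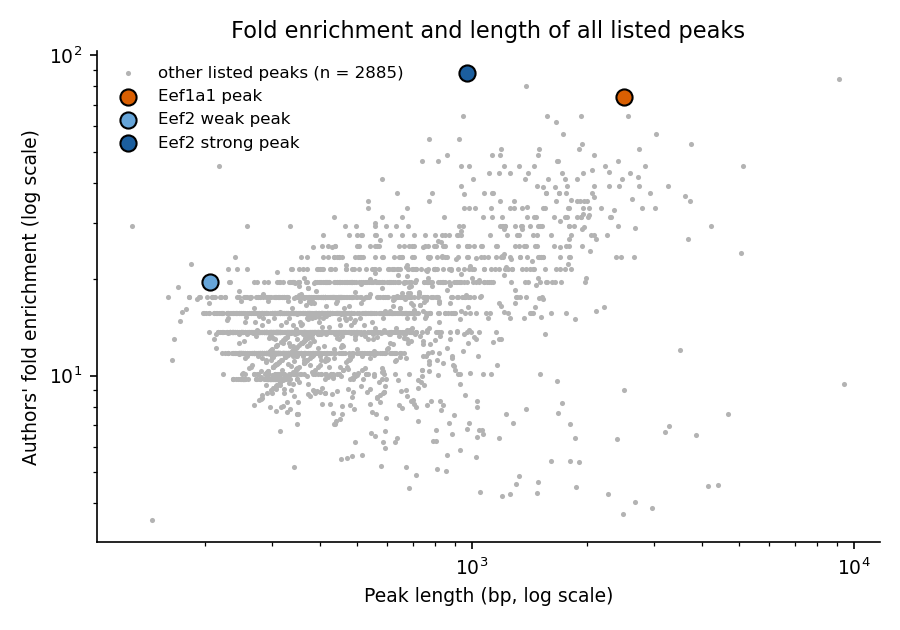
Fold enrichment (y axis, log scale, the authors' values) against peak length in bp (x axis, log scale) for all 2888 peaks, with the 3 peaks at Eef1a1 and Eef2 coloured. The strong Eef2 peak is the topmost point at 88.06 although it is only 967 bp long, the Eef1a1 peak lies lower and to the right at 2493 bp, and the weak Eef2 peak lies near the short end at 206 bp.

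Most folds in the list fell on a ladder, from which the height of those summits can be read. Of the 2888 folds, 2099 were whole multiples of 1.9567 within 0.01, as arises where the caller divides by 1 genome-wide background. Such peaks are referred to as being at the floor. For the other 789 peaks the fold gives no height, so a rank by fold in the whole list is not a rank by summit height. All 3 peaks at Eef1a1 and Eef2 were at the floor, as were 72.7% of the list, so their folds can be compared with each other as heights. The Eef1a1 summit stood 38 steps high, the strong Eef2 summit 45 steps and the weak Eef2 summit 10 steps. A step was read as 1 tag: no peak at the floor had more steps than tags, and with 2 tags per step 51.8% of those peaks, the weak Eef2 peak among them, would have had more tags at the summit than in the whole peak. On this reading 10 of the 11 tags of the weak Eef2 peak stacked at its summit (90.9%), as did 37.2% of the tags of the strong Eef2 peak and 13.7% of those of the Eef1a1 peak. Medians at the floor were 77.8% for peaks of up to 250 bp, 31.6% for peaks of over 500 to 1000 bp and 16% for longer peaks.

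**Figure D3:**
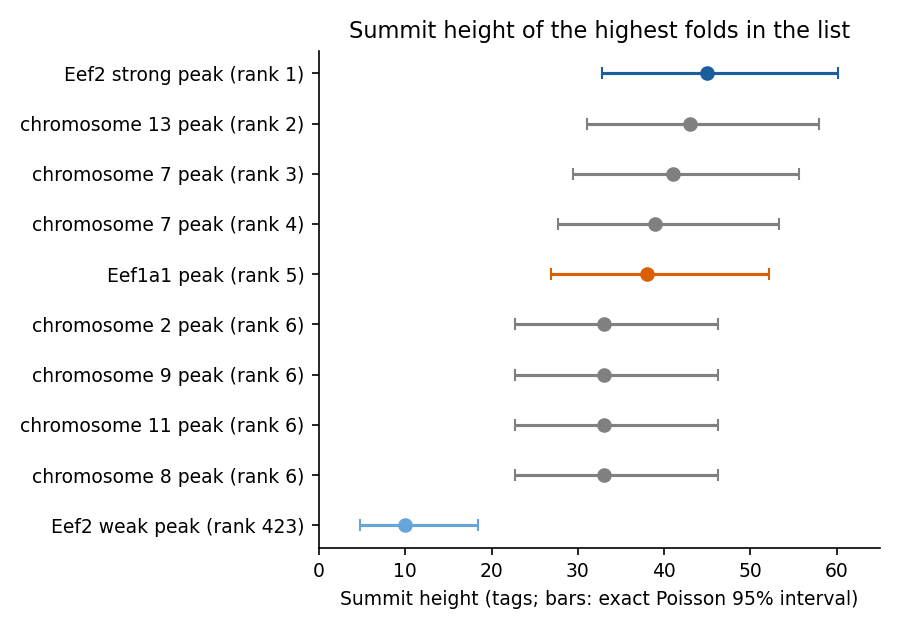
Summit height in tags (x axis) of the 9 peaks at the genome-wide background among the 10 highest folds of the list, and of the weak Eef2 peak, with exact Poisson 95% intervals as bars. The intervals treat each height as a fixed count, although a summit is the highest point of its peak. The strong Eef2 summit (45 tags) and the Eef1a1 summit (38 tags) have intervals that overlap each other and those of the other high peaks, and the weak Eef2 summit (10 tags) lies below them all.

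Counting error does not fix the order of the highest folds. The interval of the summit height was 32.8 to 60.2 tags for the strong Eef2 summit and 26.9 to 52.2 for the Eef1a1 summit. These intervals treat the height as a fixed count. A summit is the highest point of its peak, and these peaks were picked by high fold, which the intervals do not take into account. Between them by fold lay a peak of 9148 bp on chromosome 13 (43 tags at the summit, interval 31.1 to 57.9) and peaks of 1380 and 2511 bp on chromosome 7 (41 and 39 tags at the summit). The 4 peaks that followed had 33 tags at the summit each (interval 22.7 to 46.3), and this interval also overlapped that of the strong Eef2 summit. The weak Eef2 summit had an interval of 4.8 to 18.4 tags, below those of the 2 strong summits. The peaks were named weak and strong by these same values, so this separation is no test. It is also not particular to the weak peak, as its fold of 19.57 was above the list median of 13.7.

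The listed false discovery rate ordered the 3 peaks differently from their scores. It was 12.5% at the Eef1a1 peak, 3.57% at the strong Eef2 peak and 1.3% at the weak Eef2 peak. A rate above 5% was thus listed for 1 of the 3 peaks, the one with the highest score, and for 35.4% of the list. The rate counts the peaks that calling finds once input and ChIP trade places, divided by the rank. Multiplied back, it corresponded to 1 exchanged peak at or above the Eef1a1 score, 2 at or above the strong Eef2 score and 18 at or above the weak Eef2 score. A single exchanged peak therefore sets the rate at Eef1a1. Scores reached at least 100 for 2 of the 3 peaks and for 35.9% of the list.

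The Eef1a1 peak stood alone, and the strong Eef2 peak had the weak one as its only near neighbour. The nearest listed peaks were 109 kb below and 48.8 kb above the Eef1a1 peak. Below it, a peak of 935 bp had 57 tags and a fold of 27.4, and above it a peak of 665 bp had 35 tags and a fold of 19.57. The nearest peak below the Eef2 pair was 26.8 kb away, with a length of 583 bp, 32 tags and a fold of 23.48. Above the strong Eef2 peak the next lay 136 kb away, with 819 bp, 30 tags and a fold of 13.7. All 4 of these outer peaks had fewer tags than the nearby strong peak, whose gene was chosen by its high values. Their lower folds follow from the ranks already given, as each strong peak had the highest fold on its chromosome. None of the 4 lay within 10 kb of a window. Having no other listed peak within 10 kb applied to 1 of the 3 peaks and to 42% of the list. It also applied to 3 of the 10 highest scores, the Eef1a1 peak among them, and to 41 of the 100 highest, whose median gap to the nearest peak was 0.897 kb.

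**Figure D4:**
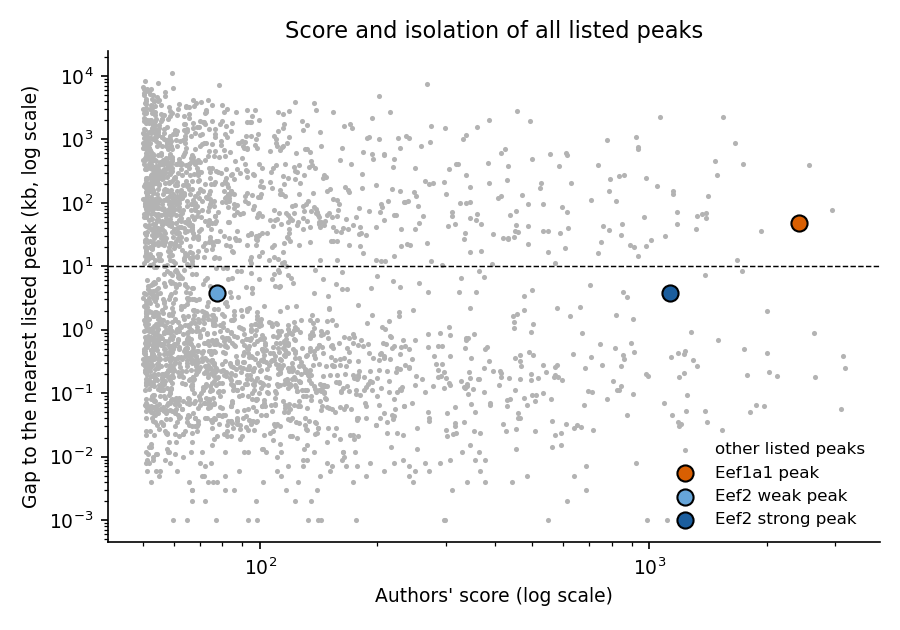
Gap to the nearest listed peak in kb (y axis, log scale) against the authors' score (x axis, log scale) for all listed peaks, with the 3 peaks at Eef1a1 and Eef2 coloured and a dashed line at 10 kb. The Eef1a1 peak lies above the line at 48.8 kb, and the 2 Eef2 peaks lie below it at 3.85 kb from each other.

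RefSeq also names pseudogenes of both elongation factors, and processed copies of highly expressed genes can share reads with them. How the authors treated reads that fit several places is not given in the sources used here, and its part in the 3 peaks was not tested.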

How the data were processed

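The authors' peak list of the precipitated library was analysed. The submitters' processing notes name mm9 as the build and, without roles, MACS 1.4, Bowtie and SAMtools. Which calling options, read filters and sequencing depth applied is not given in the sources used here. A peak has, per the file headers, a length and a summit offset in bp, a whole-number count of tags with no scaling, a score, a fold enrichment (a ratio) and a false discovery rate deposited in percent. The summit position was computed as start plus offset minus 1, which reads the offset as counted from 1 at the peak start. The listed positions were taken as counted from 1, since end minus start fell 1 short of the length in 100% of rows.

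All 2888 peaks were kept, and the 3 that overlapped the windows were described. Folds were searched for a common step between 1.5 and 2.5. This search and the overlap step were tested on simulated data. Motifs and gene order came from RefSeq tables of GRCm38.p6. By the rule for named items, every peak in a window, the nearest peak on each side and the 3 nearest genes on each side were named. The peaks compared by rank, length or tags were chosen after their values were seen. The genes, windows and lists were chosen with earlier results of these data known. The software was scipy 1.17.1, pandas 2.3.3, numpy 2.4.6 and matplotlib 3.10.9 under Python 3.11.15.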

Additional observations from a re-analysis of the deposited data

How the results depend on the processing

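The Eef1a1 window kept 1 peak and 277 tags at scores of at least 100, among the 50% of peaks with the highest scores, with the summit required inside the window, and with the window narrowed by 5 kb or widened by 10 kb on each side. With a false discovery rate of at most 5% it held 0 peaks and 0 tags, as the rate at its rank is set by 1 exchanged peak. The Eef2 window kept 2 peaks and 132 tags in these settings except at scores of at least 100, where 1 peak with 121 tags was left. The rank of the Eef1a1 peak, 8 by score, was 17 by tags, 5 by fold, 35 by length and 12 by tags per kb. The rank of the strong Eef2 peak, 56 by score, was 101 by tags, 1 by fold, 346 by length and 5 by tags per kb. No paired analysis was possible because each kind of library was made once. Sequencing depth is unknown and the lowest tag count listed was 9, so an absent peak cannot be read as absent binding.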
